A study of Mus musculus with 12 samples.

Results

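Whole skin of untreated *Ahr*-/- mice was compared with that of untreated *Ahr*+/- littermates, the state from which both genotypes entered an experiment with imiquimod (IMQ). The comparison used 6 of the 12 arrays of the series, the 3 titled as untreated AhR KO and the 3 titled as untreated AhR HET, and 18193 genes. Each gene was read from 1 probe set, the brightest of those annotated to that gene alone, as log2 signal. *Ahr*-/- mice lacked both copies of *Ahr* in every tissue, and their *Ahr*+/- littermates carried 1 deleted copy, so no array of the series held fully wild-type skin. The untreated mice received no agent and their skin was taken on day 0. The other 6 arrays came from *Ahr*-/- and *Ahr*+/- mice treated daily with IMQ cream and taken on day 2. They entered here only through the shared estimate of the spread and where day 2 values are given beside untreated ones. Age and sex were not given in the labels, and skin was snap-frozen whole, with hair follicles, fat and muscle.

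The aryl hydrocarbon receptor (AhR) is a transcription factor held in the cytoplasm by the chaperone HSP90 until it binds a ligand, such as a dioxin or a product of tryptophan. It then enters the nucleus, pairs with ARNT and switches on genes that break ligands down, among them *Cyp1a1*, and the gene of its own repressor, *Ahrr*. In skin it is present in keratinocytes, melanocytes, fibroblasts and immune cells, and it is known for its role in barrier formation and in keeping the gamma delta T cells of the epidermis.

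The arrays of each group were labelled as biological replicates, and p-values here measure the spread between them. Median signal lay between 7.38 and 7.56 in all 12 arrays, and basal and suprabasal keratins had a mean signal from 9.75 to 10.01 in the 6 untreated arrays. The mean signal of the 3 control probe sets for 18S rRNA was low in *Ahr*+/- replicate 1 (9.06) and *Ahr*-/- replicates 1 and 2 (8.72 and 8.70). It was high in *Ahr*+/- replicates 2 and 3 (13.11 and 13.03) and *Ahr*-/- replicate 3 (12.70). *Ahr*+/- replicate 2 also stood apart by its hair follicle and immune genes, as given beside the results below. In whole skin, fewer cells of a type and less RNA per cell cannot be told apart.

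Across all genes, 1 was called higher in *Ahr*-/- skin (0.0055% of 18193) and 0 were called lower (0%). A call needed a fold of at least 1.5 and a limma p that stayed under 0.05 after adjustment. The gene was *Iglv1*, an immunoglobulin light chain gene. At an unadjusted p under 0.05, 742 genes (4.08%) were higher and 438 (2.41%) lower (6.49% in all), and the median difference of all genes was 0.02 on the log2 scale. Signals of the 2 groups did not overlap for 916 genes higher (5.03%) and 687 lower (3.78%), 8.81% in all. The rank product ranks each gene by its difference over all 9 pairs of 1 *Ahr*-/- and 1 *Ahr*+/- array. With its estimated share of false positives under 0.01 and a fold of at least 1.5, it called 12 genes higher (0.066%) and 46 lower (0.253%). The 12 were led by plasma cell and drug-metabolizing genes and the 46 by hair follicle genes. Without *Ahr*+/- replicate 1, the limma test called 181 genes higher (0.995%) and 25 lower (0.137%). The *Ahr*+/- arrays left there all had high 18S signal, and 2 of the *Ahr*-/- arrays low signal. Genotype and 18S signal were thus partly confounded in that fit. Without replicate 2 the limma test called 3 higher (0.0165%) and 1 lower (0.0055%), and without replicate 3 it called 2 higher and 0 lower. Except where a call is named, the counts that follow are of genes at an unadjusted p under 0.05 in limma, which is a description of size and direction and not a call.

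The *Ahr* probe set with the highest signal read 11.30, 10.11 and 11.12 in *Ahr*+/- replicates 1 to 3 and 11.37, 11.29 and 11.44 in *Ahr*-/- replicates 1 to 3. The second, dimmer set read 5.81, 6.31 and 5.88 against 6.19, 5.91 and 5.99. Neither was lower in the *Ahr*-/- arrays, and the difference of the brighter set was 0.52 (SE 0.29, adjusted p = 0.779). Where these probes lie relative to the deleted part of the gene was not determined, so that the signal does not check the genotype labels. Of the 9 measured genes for the receptor and its partners, 1 was lower (background 2.41%), *Hsp90aa1*, which encodes the inducible HSP90 chaperone. It read 12.18, 12.71 and 12.43 in *Ahr*+/- and 11.97, 11.94 and 12.22 in *Ahr*-/- skin, a difference of -0.40 (SE 0.18, adjusted p = 0.756). The partner *Arnt* read 9.51, 9.29 and 9.53 against 9.57, 9.63 and 9.61.

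Of the 9 measured AhR target genes, 0 were higher and 0 lower, and their median difference was 0.13 beside 0.02 for all genes. *Cyp1a1*, the cytochrome P450 that clears many AhR ligands, read 7.48, 6.75 and 7.35 in *Ahr*+/- and 7.43, 6.71 and 8.10 in *Ahr*-/- skin. The ranges overlapped throughout, with the highest value in *Ahr*-/- replicate 3. *Ahrr*, the AhR repressor, read 5.84, 4.81 and 5.74 against 5.79, 5.51 and 5.47. On day 2 of IMQ the differences were -1.46 for *Cyp1a1* and -1.36 for *Ahrr*, with adjusted p of 0.14 and 0.122 in limma for the change of the genotype difference. *Aldh3a1*, an aldehyde dehydrogenase, differed by -0.14 in untreated skin and by -1.41 on day 2. *Tiparp*, a feedback inhibitor of the receptor, differed by -0.04, and *Cyp2s1* by -0.15. *Cyp1b1*, *Scin* and *Nqo1* differed by 0.51, 0.43 and 0.36, and *Cyp1a2* by -0.10. The direction for *Cyp1a1* and *Ahrr* turned without *Ahr*+/- replicate 2.

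The AhR with ARNT recognizes a core of 5 bases, GCGTG. RefSeq promoters (GRCm38.p6, 250 bases before to 50 after the annotated start, both strands searched) held the core in 32.4% of 32851 cases, and in 5 of the 8 target genes found in the table. The windows below show it in capitals at genes whose signal did not pass the test in untreated skin. *Cyp1a1* is at chr9:57697547-57697576 (plus strand), *Scin* at chr12:40134246-40134275 (minus strand) and *Ahrr*, in the nearest of 3 windows, at chr13:74292341-74292370 (minus strand).
Cyp1a1: tcagataaggagGCGTGgccaacagacaca
Scin: gcccgggttcggGCGTGgctgttggcttcc
Ahrr: gcggggcggctcGCGTGctggggtggggct
A match to these letters is a description of the sequence and not of binding in skin.

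Genes of antibody-secreting cells had the highest differences in *Ahr*-/- skin. *Iglv1*, a variable segment of the lambda light chain, read 5.26, 4.53 and 4.56 in *Ahr*+/- and 7.33, 7.48 and 7.97 in *Ahr*-/- skin. Every *Ahr*-/- array lay more than 2 log2 units above every *Ahr*+/- array. The means were 4.78 ± 0.42 and 7.59 ± 0.33 (SD, n = 3 each), a fold of 7.01 (log2 difference 2.81, SE 0.26, limma adjusted p = 0.00185). The probe set can bind several similar transcripts, as its _s_at name says. Another set, of the _x_at kind, read from 4.20 to 4.33 in *Ahr*+/- and 4.45, 4.80 and 6.55 in *Ahr*-/- skin, and the last read from 2.69 to 3.25 in all 6 arrays. Averaged over all sets the difference was 1.24 (adjusted p = 0.213). In the fit to the untreated arrays alone the adjusted p was 0.0971, and with the 18S level as a block in that fit it was 0.661.

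*Jchain*, which encodes the chain that joins IgA and IgM into polymers, read 7.08, 4.53 and 5.87 in *Ahr*+/- and 9.73, 9.59 and 9.50 in *Ahr*-/- skin. The *Ahr*-/- arrays lay close to each other and the *Ahr*+/- arrays were widely spread, with no overlap. The difference was 3.78 (SE 0.50, adjusted p = 0.0507), the largest positive difference of all genes. *Jchain* passed the threshold without *Ahr*+/- replicate 1 (adjusted p = 0.00135) and without replicate 2 (adjusted p = 0.0146), both in limma. *Igha*, the constant region of IgA, read 8.98, 6.80 and 8.11 against 11.30, 10.89 and 9.16. All 3 *Ahr*-/- arrays were above all 3 *Ahr*+/- arrays, *Ahr*-/- replicate 3 by the least, and the difference was 2.49 (SE 0.64, adjusted p = 0.717). *Ighm*, the constant region of IgM, read 10.62, 10.22 and 11.21 against 11.57, 11.64 and 12.39, a difference of 1.18 (SE 0.28). *Igkv8-30*, a kappa variable segment, differed by 1.92 (SE 0.40), with no overlap. *Tnfrsf17*, which encodes BCMA, a receptor of plasma cells, read 5.40, 5.23 and 5.44 against 5.87, 5.65 and 6.08.

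Of the 19 measured immunoglobulin genes, 5 were higher and 1 lower (background 4.08% and 2.41%). The groups did not overlap for 5 higher genes (5.03% of all genes), which were not all the same genes. The median difference of the 19 was 0.14, beside 0.02 for all genes. The fifth at the unadjusted threshold was *Ighg3* (0.72), a constant region of IgG, whose groups overlapped. The lower one was another kappa variable segment (-0.69). Both were chosen after their values were seen. The counts were 5 and 1 also without *Ahr*+/- replicate 1 and without replicate 2. With 18S signal as a covariate they were 5 and 0 (background 3.84% and 1.9%). Immunoglobulin genes form families of near-identical copies, and a probe set named for 1 of them may read others. Of 20 measured B lineage genes, 2 were higher, *Jchain* and *Tnfrsf17*, and 0 lower (background 4.08% and 2.41%). The median difference of the 20 was 0.04, with 11 differences above 0 and 9 below. The list's mean signal, which includes the large difference of *Jchain*, was 5.48, 5.51 and 5.66 in *Ahr*+/- and 5.77, 5.74 and 5.99 in *Ahr*-/- skin. The defining markers of B cells that have not become plasma cells were low in both groups. *Cd79a* read from 4.30 to 5.02 and from 4.55 to 4.80, *Ms4a1*, which encodes CD20, from 4.40 to 5.30 and from 4.36 to 5.22, and *Pax5* from 5.36 to 5.97 and from 5.33 to 6.06. Those 3 were also chosen after their values were seen, and none of them separated the groups.

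On day 2 of IMQ the genotype differences of these genes were smaller or of the other sign. The *Iglv1* difference was 0.15, that of *Jchain* 0.38 and that of *Ighm* -0.66. *Iglv1* then read from 4.22 to 4.76 in *Ahr*+/- and from 4.36 to 5.10 in *Ahr*-/- skin. *Jchain* read from 4.30 to 5.39 and from 4.60 to 5.56. Both genes lay far below the median signal of the arrays, where a genotype difference could be missed. *Ighm* read 9.53, 9.58 and 9.72 in *Ahr*+/- and 8.49, 9.08 and 9.26 in *Ahr*-/- skin, with every *Ahr*-/- array below every *Ahr*+/- array. In limma the change of the genotype difference from untreated skin to day 2 was -2.66 for *Iglv1* (adjusted p = 0.00624), -3.41 for *Jchain* (adjusted p = 0.0401) and -1.85 for *Ighm* (adjusted p = 0.0449). *Igha* differed by 0.03 on day 2, but the change did not pass the threshold (adjusted p = 0.186). These genes were named for their untreated difference, which is part of the change tested. The difference of the 3′ and 5′ control probe sets for *Gapdh*, which widens as RNA is degraded, was 1.17 and 1.52 in *Ahr*-/- replicates 1 and 2 of day 2 and at most 0.53 in the other 10 arrays. Its part in the day 2 values was not tested.

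**Figure D1:**
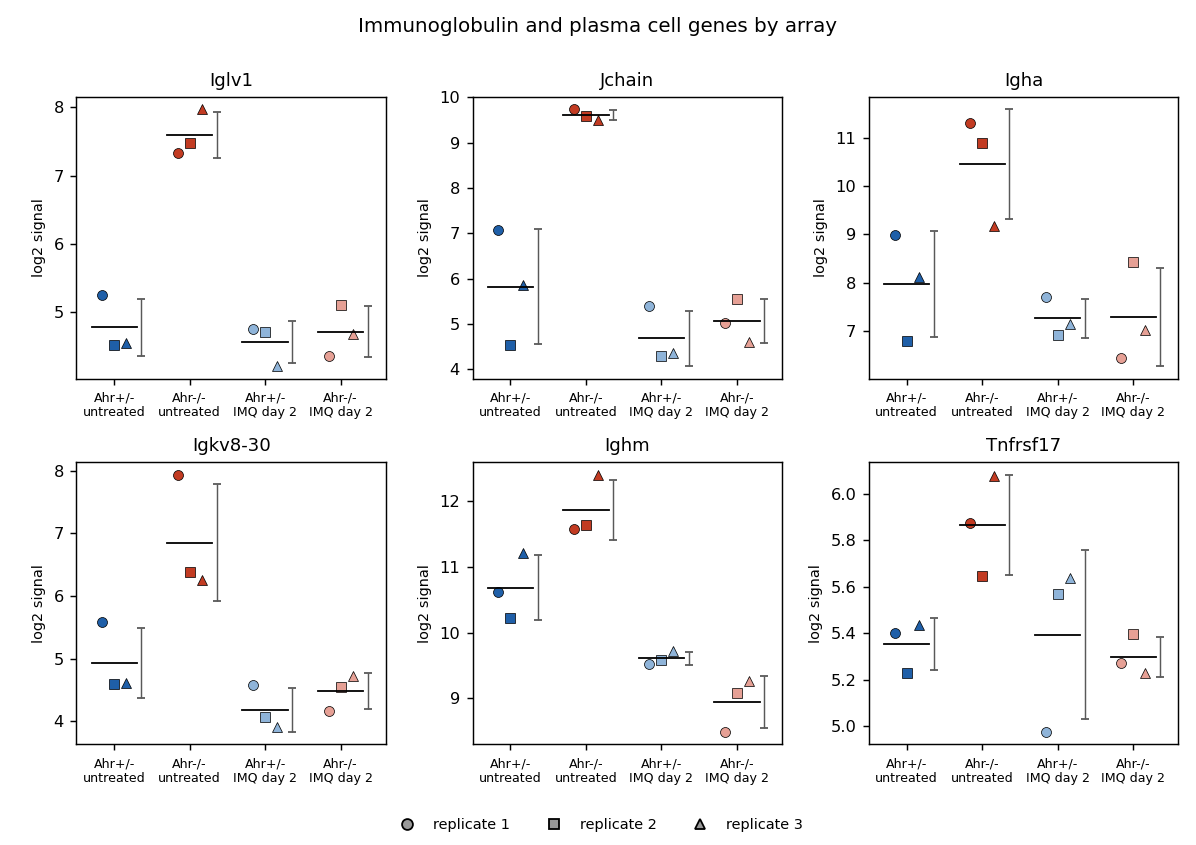
Log2 signal of 6 immunoglobulin and plasma cell genes in every array. Each point is 1 array (circle, square and triangle are replicates 1, 2 and 3), the black line is the group mean and the grey bar 1 SD to each side. In untreated skin the *Ahr*-/- arrays lie above the *Ahr*+/- arrays in all 6 panels, for *Jchain* at 9.50 to 9.73 against 4.53 to 7.08.

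Hair follicle genes had the lowest differences. The inner root sheath is the layer that moulds the growing hair, and it is made only while a follicle is in its growth phase. Of its 10 measured genes, 9 were lower in *Ahr*-/- skin (background 2.41%), and the median difference was -3.35. The groups did not overlap for 8 of them (3.78% of all genes). *Krt25*, a keratin of that layer, read 10.04, 14.53 and 11.59 in *Ahr*+/- and 6.25, 9.26 and 3.95 in *Ahr*-/- skin. Its difference was -5.57 (SE 1.42, adjusted p = 0.717), the largest negative difference of all genes. *Krt27* read 9.91, 13.97 and 10.69 against 6.88, 9.10 and 6.04. In both genes *Ahr*+/- replicate 2 was the highest array and *Ahr*-/- replicate 2 the highest of its group. *Krt71*, *Krt28* and *Krt72*, of the same layer, differed by -3.27, -3.15 and -2.66, *Krt28* being named after its value was seen. *Tchh*, the filament-binding protein trichohyalin, read 10.65, 13.76 and 10.82 against 8.40, 10.28 and 7.34, and the 2 groups were separate. The member that did not reach the unadjusted threshold was *Tgm3* (-0.47, SE 0.39), a transglutaminase also made in epidermis, named after its value was seen. The rank product called 9 of the 10 lower, and limma called 0 of them, with adjusted p near 0.72.

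Many keratins and keratin-associated proteins of the hair shaft were lower as well, and the highest array in the mean of either list was *Ahr*+/- replicate 2. Of 12 measured hair shaft keratins, 9 were lower, with a median difference of -2.13, and of 38 keratin-associated proteins, 24 were lower, with a median of -2.32. The background was 2.41% lower. The groups did not overlap for 7 and 11 of them (3.78% of all genes). With the replicate number as a block in the untreated arrays alone, limma called 14 genes lower. They were *Krt27*, *Tchh*, *Prr9*, *Gm10229*, *Gm11563* and keratin-associated protein genes. Without *Ahr*+/- replicate 1 the genes called lower included *Krt35*, *S100a3* and *Shh*. *Krt35*, a keratin of the hair cortex, read 6.74, 12.12 and 7.62 in *Ahr*+/- and 4.82, 5.38 and 4.54 in *Ahr*-/- skin. *Krt33a* read 8.36, 13.03 and 8.42 against 5.51, 7.33 and 5.24, and both genes differed by -3.91 with no overlap. *Krtap11-1* and *Krtap4-16*, of the matrix that links keratin filaments, differed by -3.92 and -3.97. *S100a3*, a calcium-binding protein of the hair cuticle, differed by -3.64, also with no overlap.

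The size of these differences depended on *Ahr*+/- replicate 2, although their direction did not. The mean signal of the inner root sheath list was 8.39, 12.33 and 8.56 in *Ahr*+/- and 6.12, 7.59 and 5.68 in *Ahr*-/- skin. Without replicate 2, the median difference of the inner root sheath genes was -1.89 and 9 of 10 were lower (background without it 1.17%). That of the hair shaft keratins was then -1.03 with 8 lower, and that of the keratin-associated proteins -1.13 with 12 lower. With 18S signal as a covariate, 9, 7 and 20 members of these lists were lower (background 1.9%). Among the arrays of low 18S signal the inner root sheath median was -1.61, and among those of high 18S signal -4.95. On day 2 of IMQ it was -1.08, with 0 of 10 genes lower in limma, beside 10.4% of all genes.

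The list of growth-phase genes holds regulators and also genes that build the hair, among them *Tchh*, *S100a3* and *Padi3*. Of 25 measured, 7 were lower (background 2.41%), with a median difference of -0.62. Without *Ahr*+/- replicate 2, 6 were lower (background 1.17%) and the median was -0.09. *Shh*, the signal that starts follicle growth, read 4.66, 10.66 and 7.14 in *Ahr*+/- and 4.38, 4.19 and 4.71 in *Ahr*-/- skin. *Ahr*+/- replicates 2 and 3 were thus above all *Ahr*-/- arrays, and replicate 1 lay among them. *Lef1*, a transcription factor of the Wnt pathway that acts in hair-forming cells, read 6.66, 9.45 and 7.51 against 6.57, 6.58 and 6.95. *Padi3*, an enzyme that modifies trichohyalin, read 5.99, 10.96 and 6.39 against 4.83, 5.44 and 4.82. *Gjb2*, which encodes a gap junction protein, differed by -2.74.

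Pigment and cell division genes followed. Of 18 measured melanocyte pigment genes, 6 were lower (background 2.41%) and 1 higher (*Rab27a*, a carrier of pigment granules, 0.84), with a median difference of -0.46. *Dct*, an enzyme of melanin synthesis, read 9.52, 12.29 and 9.69 in *Ahr*+/- and 8.70, 8.76 and 8.63 in *Ahr*-/- skin, a difference of -1.81 (SE 0.55) without overlap. *Tyrp1* and *Pmel*, of the same granules, differed by -1.80 and -1.65, and *Tyr*, the first enzyme of melanin synthesis, named after its value was seen, by -2.36. The median of the list was -0.02 without *Ahr*+/- replicate 2, with 5 genes lower (background 1.17%). Of 31 cell cycle genes, 7 were lower (background 2.41%) and all 31 differences were below 0 (46.1% of all genes' were), with a median of -0.71. *Mki67*, a marker of dividing cells, read 9.46, 11.66 and 9.69 against 9.31, 9.12 and 9.23. The cell cycle median was -0.15 without *Ahr*+/- replicate 2, with 1 gene lower (background 1.17%), and with 18S signal as a covariate 0 were (background 1.9%).

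**Figure D2:**
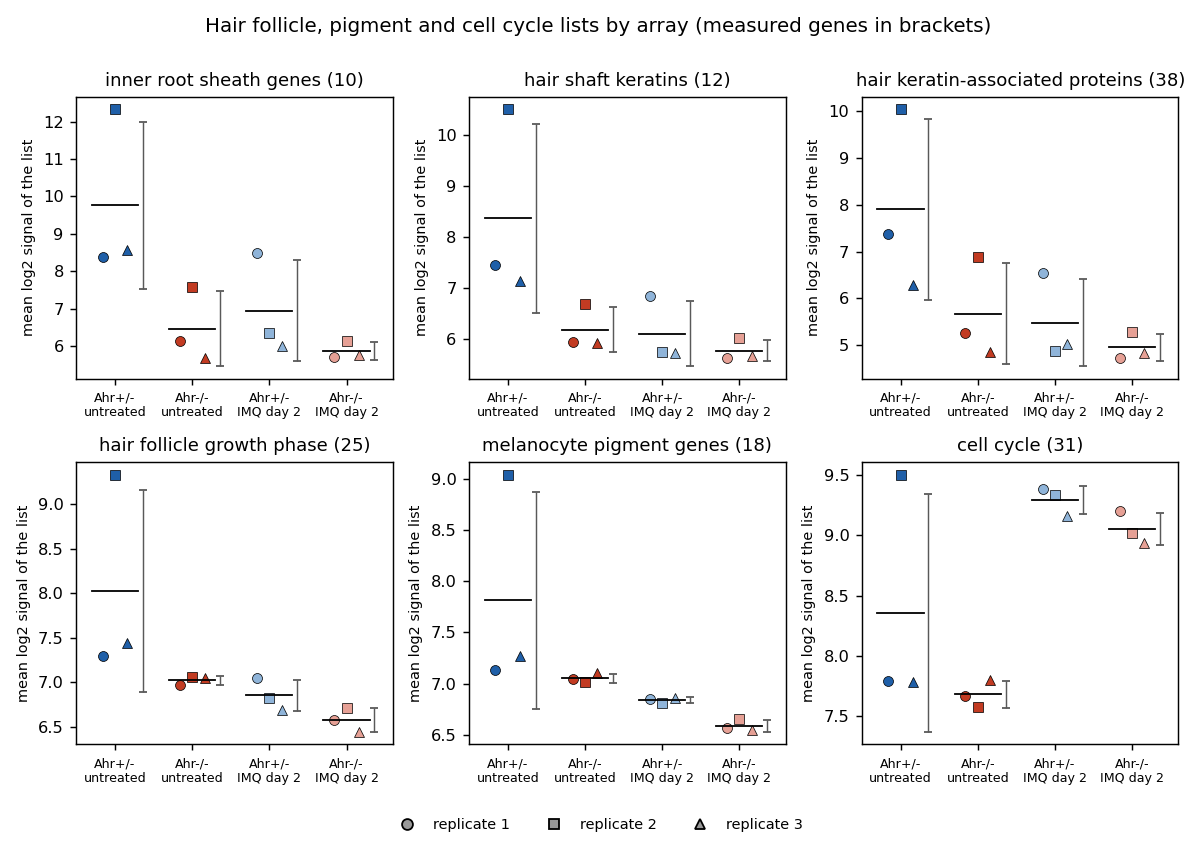
Mean log2 signal of 6 gene lists in every array, with points, lines and bars for arrays, means and SD as in the plot of immunoglobulin genes. *Ahr*+/- untreated replicate 2 is the highest array in every panel, at 12.33 for the inner root sheath genes, while in the upper 3 panels the other *Ahr*+/- untreated arrays are also above at least 2 of the *Ahr*-/- arrays.

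LEF1 and its relatives bind the letters CTTTGAA, and hair keratin promoters are known for such sites. Searched on both strands, the motif was in 5.14% of all 32851 promoters, in 4 of the 7 hair shaft keratins in the table and in 2 of the 10 inner root sheath genes. In all 4 shaft keratins a match lay between positions -247 and -240 from the annotated start. The windows are from the minus strand of chromosome 11, with the motif in capitals, at chr11:100050772-100050801 (*Krt31*), chr11:100088490-100088519 (*Krt32*), chr11:100030089-100030118 (*Krt33b*) and chr11:100041775-100041804 (*Krt34*). They are shown because these genes lie in 1 cluster and were measured side by side.
Krt31: tgacttCTTTGAAgggctactgcagaactc
Krt32: gccCTTTGAAgatgtgtcttgatgctctcc
Krt33b: ttaCTTTGAAgccaaaccatgaagctcttt
Krt34: aatctgcctcCTTTGAAggcatctaatgaa
*Krt34* differed by -3.71 and *Krt33b* by -2.55. *Krt31*, which read 7.09, 11.02 and 7.17 against 5.85, 6.28 and 5.70, and *Krt32*, at 7.98, 10.29 and 7.70 against 7.56, 7.78 and 7.73, were added for their sequence after their values were seen. The match in *Krt32* went with a difference of -0.97 (SE 0.49) that did not reach the unadjusted threshold.

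Some enzymes that handle drugs, lipids and oxidants had a higher signal in *Ahr*-/- skin, though none was called in the limma fit of all 12 arrays. *Ces1f*, a carboxylesterase, read 6.15, 4.92 and 6.99 in *Ahr*+/- and 8.48, 8.37 and 8.51 in *Ahr*-/- skin. The *Ahr*-/- arrays were nearly equal and all above the *Ahr*+/- arrays, by 2.43 on average (SE 0.38, adjusted p = 0.17). *Ces1f* was called in limma without *Ahr*+/- replicate 1, 2 or 3 (adjusted p = 0.029, 0.0192 and 0.0114). *Gsta3*, a glutathione transferase, read 5.98, 4.92 and 6.91 against 8.11, 7.70 and 8.78. *Cyp2e1*, a cytochrome P450 of small solvents and fatty acids, read 11.57, 7.90 and 10.95 against 12.69, 12.46 and 11.80. In each of these genes *Ahr*+/- replicate 2 was the lowest array, and the groups did not overlap.

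Of 24 measured drug metabolism genes, 6 were higher and 0 lower (background 4.08% and 2.41%), with a median difference of 0.40. The median was 0.07 with 3 higher (background 2.23%) without *Ahr*+/- replicate 2. Of 17 genes of the NRF2 antioxidant response, 4 were higher (background 4.08%), with a median of 0.25, and 3 with a median of 0.15 without that array (background 2.23%). They included *Gsta3* and *Cat*, or catalase, which read 11.82, 11.33 and 11.40 against 12.35, 12.34 and 12.08, a difference of 0.74 (SE 0.16, adjusted p = 0.68). *Gstm1*, another glutathione transferase, differed by 0.47, and *Me1*, the malic enzyme that supplies NADPH for lipid synthesis, by 0.84. Of 23 genes of sterol and fatty acid synthesis, 4 were higher (background 4.08%), with a median of 0.04, and 2 without that array (background 2.23%). These were *Me1*, *Acss2* (0.82), *Acaca* (0.66) and *Fasn* (0.65), all of fatty acid rather than sterol synthesis. *Acaca*, the enzyme of its first committed step, read 9.08, 9.02 and 9.44 against 10.09, 9.49 and 9.92. Of 22 dermal adipocyte genes, 4 were higher and 1 lower (background 4.08% and 2.41%). Without that array 1 was higher and 1 lower (background 2.23% and 1.17%), so that the list did not lean to either side. The 4 included *Acvr1c*, an activin receptor of fat cells (1.13, SE 0.27), and *Adipoq*, or adiponectin (0.59, SE 0.25).

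Several of these differences turned on day 2 of IMQ. *Ces1f* differed by -0.98 on day 2, *Ces1d* by 0.89 in untreated skin and -1.75 on day 2, and *Cat* by 0.74 and -0.79. In limma the change of the genotype difference was -3.41 for *Ces1f* (adjusted p = 0.0149), -2.63 for *Ces1d* (adjusted p = 0.0173), -1.53 for *Cat* (adjusted p = 0.0131) and -1.72 for *Me1* (adjusted p = 0.033). The mean of each of these genes was thus higher in *Ahr*-/- than *Ahr*+/- skin before IMQ and lower on day 2. They too were named for their untreated difference, which is part of the change tested. The *Gapdh* control difference of 1.17 and 1.52 in *Ahr*-/- replicates 1 and 2 of day 2 stands beside these changes too, and its part was not tested.

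Other named genes with higher signal in *Ahr*-/- skin had varied roles. *Tnfrsf11b*, or osteoprotegerin, the decoy receptor of RANKL, read 7.29, 5.25 and 5.42 in *Ahr*+/- and 8.55, 8.32 and 8.23 in *Ahr*-/- skin (difference 2.38, SE 0.43, adjusted p = 0.313). It was called without *Ahr*+/- replicate 1, the highest of its group (3.03, adjusted p = 0.000867 in limma). *Slc15a2*, a peptide transporter, read 8.53, 8.79 and 5.75 against 10.57, 9.75 and 9.72, and *Hamp*, the iron hormone hepcidin, 6.10, 5.70 and 5.93 against 7.75, 6.61 and 9.72. Neither gene's groups overlapped, and the *Hamp* values of the *Ahr*-/- arrays were widely spread. *Alox15*, a lipoxygenase of eosinophils and macrophages, read 5.40, 5.19 and 5.18 against 6.17, 5.76 and 6.24 (0.80, SE 0.17). *Lipk*, a lipase of the outer epidermis, and *Elovl7*, which lengthens fatty acids, differed by 1.03 and 0.89, and *Spink5*, an inhibitor of epidermal proteases, by 0.76.

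**Figure D3:**
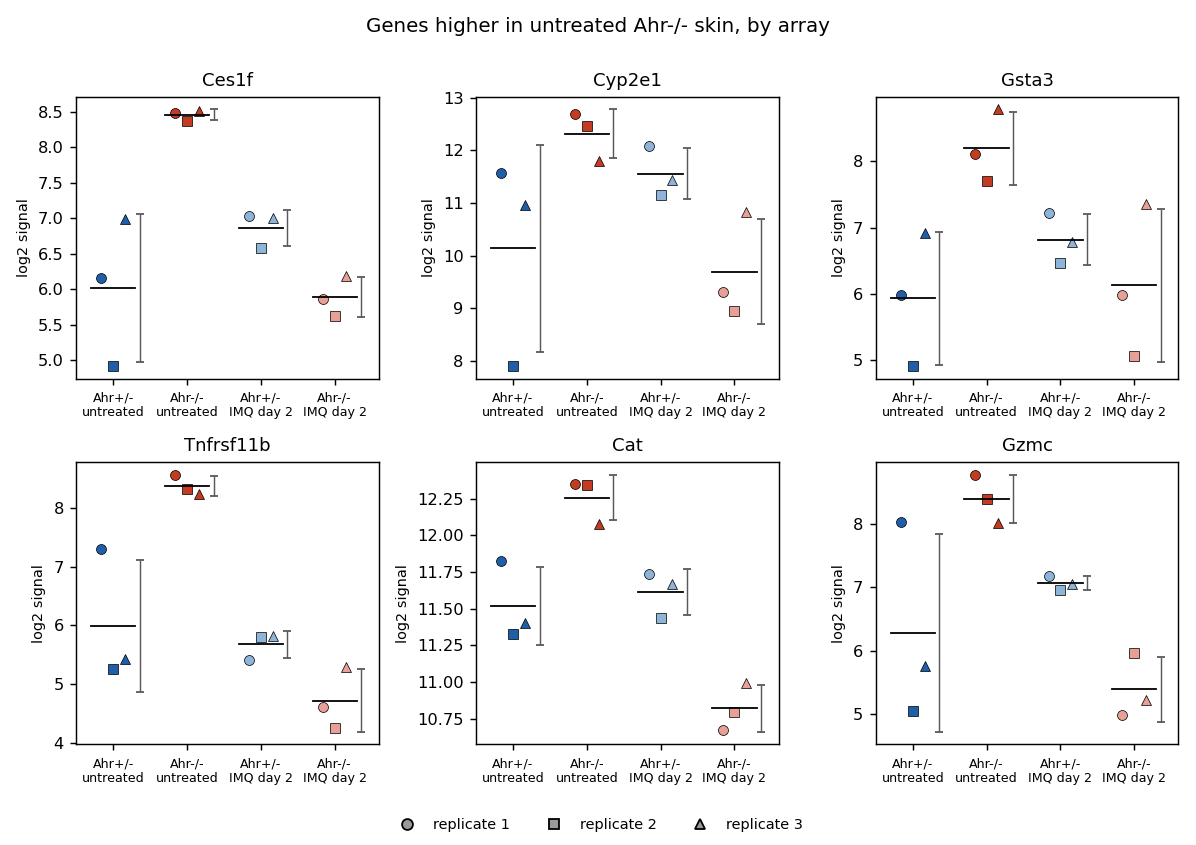
Log2 signal of 6 genes with higher signal in untreated *Ahr*-/- skin in every array, with points, lines and bars for arrays, means and SD as in the plot of immunoglobulin genes. The untreated *Ahr*-/- arrays are the highest in most panels (*Ces1f* from 8.37 to 8.51), and on day 2 the mean of *Ces1f*, *Tnfrsf11b*, *Cat* and *Gzmc* is lower in *Ahr*-/- than in *Ahr*+/- skin.

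Immune genes differed less, and with the choice of arrays. All 10 measured genes of MHC class II presentation, the route by which dendritic cells and macrophages show antigen to T cells, had differences above 0 (53.9% of all genes did), and 3 were higher, with a median of 0.65. *H2-Oa*, which adjusts peptide loading, read 6.33, 5.54 and 6.05 in *Ahr*+/- and 6.94, 6.82 and 6.97 in *Ahr*-/- skin, a difference of 0.93 (SE 0.18, adjusted p = 0.421) with no overlap. Its partner *H2-Ob* differed by 1.21 (SE 0.33), and *H2-Aa*, a chain of the presenting molecule itself, by 0.60 (SE 0.25). The background of the 3 higher genes was 4.08%. Without *Ahr*+/- replicate 2 the median of the list was 0.25 and 2 genes were higher (background 2.23%). The median was 0.03 among the arrays of low 18S signal and 0.80 among those of high 18S signal.

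Macrophage markers, type I interferon-stimulated genes and complement genes differed as much among the *Ahr*+/- arrays as between the genotypes. Of 18 macrophage markers 2 were higher (*Adgre1*, a surface receptor of macrophages, 0.79, and *Ms4a7*, 0.81), with a median difference of 0.38. Of 25 interferon-stimulated genes 2 were higher (*Ifi204*, 1.23, and *Cmpk2*, 1.01), with a median of 0.45. Of 17 complement genes 0 were, with a median of 0.44. Of all genes 4.08% were higher. Without *Ahr*+/- replicate 1 the counts were 11, 18 and 12 (background 10.8% higher and 6.3% lower), and without replicate 2 they were 0, 0 and 0. The mean signal of the macrophage list was 10.55, 8.93 and 9.69 in *Ahr*+/- and 10.08, 10.40 and 9.80 in *Ahr*-/- skin, so that *Ahr*+/- replicates 1 and 2 were the highest and lowest of all 6 arrays. Among the arrays of low 18S signal the 3 medians were -0.33, -0.24 and -0.14, and among those of high 18S signal 0.64, 0.75 and 0.53. With 18S signal as a covariate the 3 medians were -0.0075, 0.12 and 0.08, and 0 genes of each list were higher (background 3.84%). The cause of these differences was not tested.

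**Figure D4:**
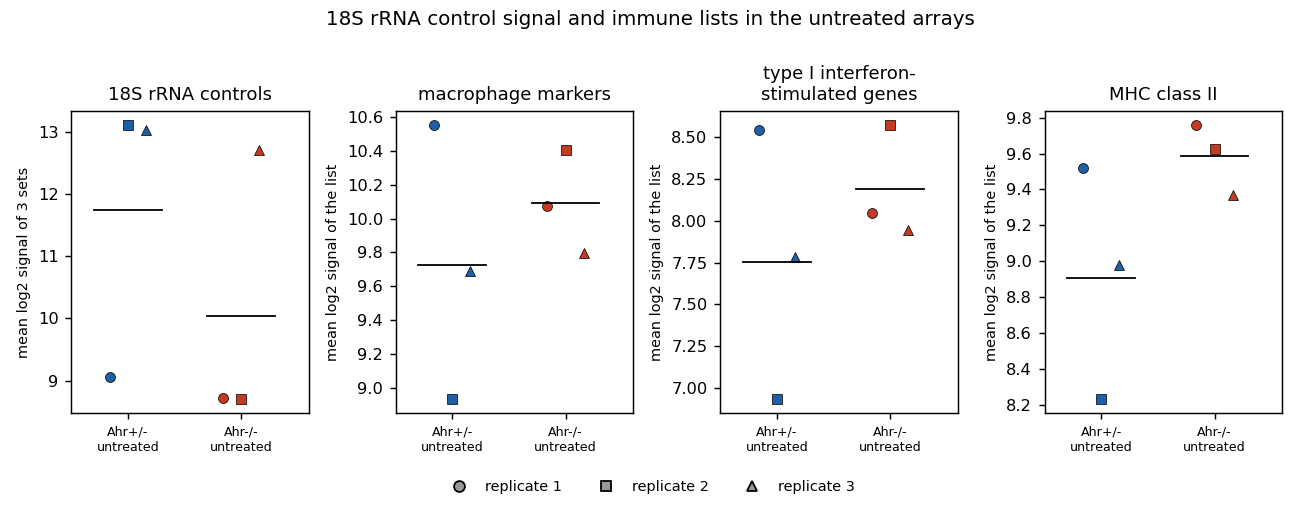
Mean log2 signal of the 3 18S rRNA control sets and of 3 immune gene lists in the 6 untreated arrays. Each point is 1 array and the line is the group mean. *Ahr*+/- replicate 1 is at 9.06 for 18S and 10.55 for macrophage markers, and *Ahr*+/- replicate 2 at 13.11 and 8.93, so the *Ahr*+/- arrays span the *Ahr*-/- arrays in the macrophage panel.

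T cell genes gave single differences in both directions. Of 22 measured epidermal gamma delta T cell genes, 3 were higher and 0 lower (background 4.08% and 2.41%), with a median of 0.17. The list also holds genes that other lymphocytes use, so it does not measure the number of these cells. The study, citing earlier work, states that *Ahr*-/- mice lack the gamma delta T cells of the epidermis. Without *Ahr*+/- replicate 2, 2 were higher and 2 lower, with a median of 0.04. *Gzmc*, a granzyme of activated killer lymphocytes, read 8.03, 5.05 and 5.75 in *Ahr*+/- and 8.76, 8.40 and 8.01 in *Ahr*-/- skin, with *Ahr*+/- replicate 1 reaching the lowest *Ahr*-/- array. Its difference was 2.11 (SE 0.56) in untreated skin and -1.67 on day 2, and the change was -3.78 (adjusted p = 0.0409 in limma). *Itgae*, the integrin CD103 of T cells within epithelium, and *Xcl1*, a chemokine of lymphocytes, differed by 0.92 and 0.42. *Trgv4*, a variable segment of the T cell receptor gamma chain that is not on that list, read 8.23, 6.31 and 7.78 against 6.42, 6.20 and 6.62. *Ahr*+/- replicate 2 lay among the *Ahr*-/- arrays and the other *Ahr*+/- arrays above them. *Trgv4* differed by -1.03 (SE 0.36, adjusted p = 0.719), by -0.99 on day 2, and without *Ahr*+/- replicate 2 by -1.59, where limma called it lower (adjusted p = 0.0146). A second segment, *Trgv1*, also not on the list and chosen after its values were seen, differed by -0.44 and by -0.22 on day 2. *Cd28*, the costimulatory receptor of T cells, read 3.73, 3.61 and 3.93 against 4.73, 4.18 and 4.50.

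A deleted gene is bred together with the chromosome around it, so the neighbours of *Ahr* were read as well. Of the 20 measured genes nearest on each side, 4 of 40 were higher and 0 lower (background 4.08% and 2.41%), with a median difference of 0.09. These were *Prkar2b* (0.89), *Meox2* (0.80), *Lrrn3* (0.48) and *Dock4* (0.45), all between 9 and 18 measured genes from *Ahr*. Without *Ahr*+/- replicate 2 the counts were 2 and 0 (background 2.23% and 1.17%). With 18S signal as a covariate they were 3 and 2 (background 3.84% and 1.9%). *Meox2*, a homeobox factor, read 8.02, 6.89 and 7.99 in *Ahr*+/- and 8.31, 8.38 and 8.62 in *Ahr*-/- skin, without overlap. The nearer gene *Sostdc1*, an inhibitor of BMP and Wnt signals, differed by 0.10 in untreated skin and by -1.80 on day 2, a change of -1.89 (adjusted p = 0.0223 in limma).

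The genotype difference before IMQ and on day 2 came from separate arrays and could be set side by side. Of all 18193 genes, 46.3% had the same sign in both. Of the 742 genes higher in untreated *Ahr*-/- skin, 29.0% did. Of those 742, 209 were on the opposite side at an unadjusted p under 0.05 on day 2 and 50 on the same side, beside 2299 and 1529 of all genes. Of the 438 lower genes, 46.6% had the same sign. On day 2, 43 of them were on the opposite side at an unadjusted p under 0.05 and 20 on the same side. Of the 46 genes lower by the rank product, 41 (89.1%) had the same sign, with 0 of them at an unadjusted p under 0.05 on day 2. The change of the genotype difference passed the threshold in limma for 241 genes (1.32%). On day 2 itself the limma test called 2.12% of genes higher and 1.86% lower in *Ahr*-/- skin.

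Some genes differed in the same direction at both times, at an unadjusted p under 0.05 and with no overlap of the groups in either. They numbered 24 higher and 12 lower, of 18193 genes. By the unadjusted p alone, 70 of the 1180 genes of untreated skin were on the same side on day 2 and 252 on the opposite side. *Car4*, a carbonic anhydrase, differed by 1.43 in untreated skin and 2.80 on day 2. It read 5.63, 4.24 and 4.98 in untreated *Ahr*+/- and 6.90, 6.31 and 5.94 in untreated *Ahr*-/- skin. *Cyp4f18*, which inactivates leukotriene B4 in neutrophils, differed by 1.15 and 2.31, *H2-Q10*, a soluble MHC class I molecule, by 0.79 and 1.79, and *Nfkbie*, an inhibitor of NF-kB, by 0.80 and 1.01. *Cd69*, an early activation marker of lymphocytes, differed by 0.65 and 1.72. Among the lower genes, *Dct* differed by -1.81 and -1.39, *Dusp4*, a phosphatase of MAP kinases, by -0.58 and -1.10, and *Atad2*, a chromatin factor of dividing cells, by -0.64 both times.

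**Figure D5:**
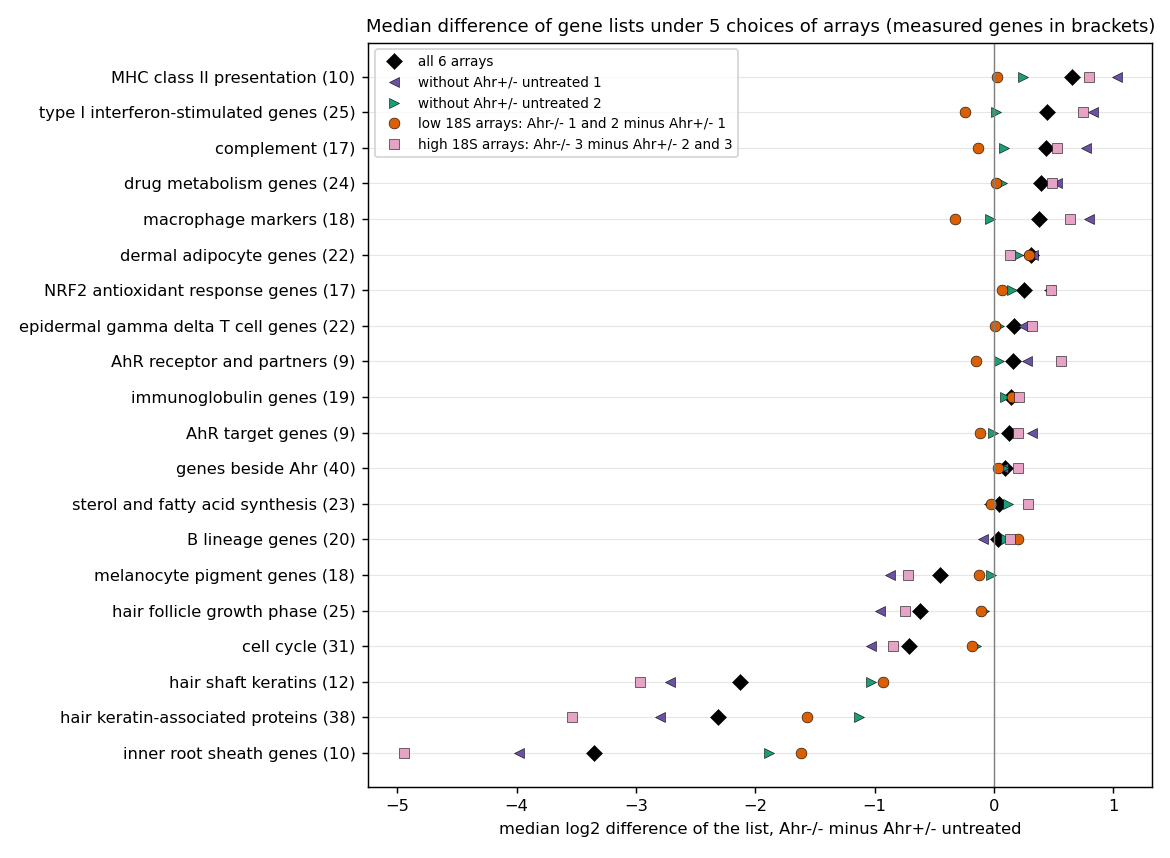
Median log2 difference, *Ahr*-/- minus *Ahr*+/- untreated skin, of 20 gene lists under 5 choices of arrays. Each symbol is 1 choice and the vertical line marks 0. The 3 lists of hair structure are below 0 under every choice (inner root sheath from -4.95 to -1.61), while the macrophage, interferon and complement lists lie on both sides of 0.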

How the data were processed

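The authors hybridized RNA of whole mouse skin, 3 biological replicates in each of 4 groups, to Affymetrix mouse genome arrays and deposited log2 signals normalized by RMA with the R package affy (no version was stated). RMA scales all arrays to 1 distribution, so only differences relative to the other genes remain. Here, 1 probe set per gene was kept, annotated to that gene alone and with the highest mean over all 12 arrays. The limma package (3.58.1, R 4.3.3) fitted 4 group means (8 residual and 4.44 prior degrees of freedom), with Benjamini-Hochberg adjustment over 18193 genes. A call needed an adjusted p under 0.05 and a fold of at least 1.5. The rank product, the criterion of the study's methods (100 permutations here), was an alternative, as were other filters, scalings, blocks and leaving out each array, 22 settings in all. The 18S settings were chosen after seeing the data. On simulated arrays with no correlation between genes, limma recovered 74% of 2-fold and 98% of 4-fold changes and called 4 unchanged genes, and the rank product recovered 3% and 99% and called 29. The comparison and the 62 gene lists were chosen with earlier results of these data known. Named genes were *Ahr*, called genes, the 10 largest separate differences each way, all members of the *Ahr* lists, up to 4 genes of each other list by p, the 10 largest calls each way of the rank product and of each left-out array, and those shared with day 2. Further names are marked as chosen after their values were seen. Promoters came from RefSeq (GRCm38.p6), without chromosome 18.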

Additional observations from a re-analysis of the deposited data

Results flagged for a closer look

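For 18 of the named genes the genotype difference changed between untreated skin and day 2 of IMQ. The test was limma's for the difference itself, adjusted over all genes, and 241 of all 18193 genes passed it (1.32%). Many named genes were chosen by their untreated difference, which is part of the change tested. A change against the sign of the untreated difference was thus favoured in advance. The arrays of the 2 times are separate, and values are day 2 minus untreated on the log2 scale. Among the antibody genes the change was -2.66 for *Iglv1*, -3.41 for *Jchain* and -1.85 for *Ighm*, with *Iglv1* and *Jchain* low in both genotypes on day 2. Among enzymes of drug, lipid and oxidant handling it was -3.41 for *Ces1f*, -2.63 for *Ces1d*, -1.72 for *Me1*, -1.53 for *Cat* and -2.38 for *Lipk*. It was -1.88 for the activin receptor gene *Acvr1c* (adjusted p = 0.0354), -3.34 for *Tnfrsf11b* (adjusted p = 0.025), -3.78 for *Gzmc* and -2.39 for the macrophage gene *Adgre1* (adjusted p = 0.0223). Beside *Ahr* it was -1.89 for *Sostdc1*. Among further genes, *B3galt2* (-2.65), *Btnl9* (-1.60) and *Zfp455* (-1.74) were chosen after their values were seen. The opposite direction, lower before IMQ and higher on day 2, was found for *Nfil3*, a repressor of clock and cytokine genes (2.05, adjusted p = 0.0173), and *Col12a1*, a fibril-associated collagen (2.35, adjusted p = 0.0464). The 18S signal was high in *Ahr*+/- replicates 2 and 3 and *Ahr*-/- replicate 3 of the untreated arrays, and on day 2 it ranged from 9.79 to 10.25 in *Ahr*+/- and from 10.40 to 12.04 in *Ahr*-/- skin. The *Gapdh* 3′ minus 5′ control difference was 1.17 and 1.52 in *Ahr*-/- replicates 1 and 2 of day 2 and at most 0.53 in the other 10 arrays. The part of either measure in these changes was not tested.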

How the results depend on the processing

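The number of called genes (1) was 0 with the mean of all probe sets, in the fit to the untreated arrays alone and with the 18S level as a block in that fit. It was 2 at an adjusted p under 0.1 and with arrays centred on their median, 7 with array weights and 58 by the rank product. Leaving out 1 array gave between 1 and 206 calls. Genes at an unadjusted p under 0.05 (1180) numbered 2250 with all probe sets tested, 2894 with array weights, 658 with the untreated arrays alone, and between 617 and 3103 with 1 array left out. Whether replicate numbers pair the samples could not be decided, because 3 same-numbered pairs are too few. Deviations of same-numbered arrays correlated at 0.316, -0.009 and 0.225, and those of other pairs between -0.362 and 0.229. With the replicate block 3 genes were called, and with the replicate block in the untreated arrays alone 16, of which the 14 lower ones were led by hair genes.

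Directions turned as follows, and the cause was not tested. With array weights *Cyp1a1* was -0.32, *Ahrr* -0.0233, *Cyp2s1* 0.044, *Gdap10* 0.20, and the medians of AhR targets -0.0233, B lineage -0.11 and sterol and fatty acid genes -0.11. With the mean of all sets *Tiparp* was 0.17, and with 18S as a covariate the macrophage median was -0.0075. Leaving out 1 array gave, from lowest to highest, these log2 differences. *Cyp1a1* ranged from -0.12 to 0.57, *Ahrr* from -0.20 to 0.32, *Tiparp* from -0.22 to 0.13 and *Aldh3a1* from -0.38 to 0.0092. *Cyp2s1* ranged from -0.34 to 0.10, *Sostdc1* from -0.00041 to 0.19 and *Gdap10* from -0.93 to 0.36. The median of AhR targets ranged from -0.072 to 0.32, of B lineage genes from -0.088 to 0.14, of sterol and fatty acid genes from -0.086 to 0.17 and of macrophage markers from -0.031 to 0.80. The call of *Iglv1* was lost in the 3 settings that called 0 genes. The number of arrays, 3 per group, limits the precision of every value.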

Other observations

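Some genes of the body clock differed among the untreated arrays, though the list as a whole was near the background. *Nr1d1*, a repressor of the clock, read 7.69, 5.56 and 6.20 in *Ahr*+/- and 7.70, 7.60 and 7.22 in *Ahr*-/- skin, so that *Ahr*+/- replicate 1 lay with the *Ahr*-/- arrays and the other *Ahr*+/- arrays below. *Per2* read 6.08, 6.99 and 7.87 against 6.19, 6.34 and 6.32, and *Cry1* 7.36, 8.50 and 8.99 against 7.22, 7.14 and 8.09, the reverse order. *Nfil3* was below all *Ahr*+/- arrays in all *Ahr*-/- arrays (8.48, 8.90 and 8.63 against 7.61, 7.77 and 8.26). Of 18 measured clock genes 1 was higher and 1 lower at an unadjusted p under 0.05, or 5.56% each (background 4.08% and 2.41%). These were *Nr1d1* and *Nfil3*, and *Per2* and *Cry1* did not reach that threshold. The hour at which skin was taken was not given in the sources used here.

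Some genes of the matrix and of epidermal regulation had lower signals in *Ahr*-/- skin, though as many matrix genes were higher as lower. Of 30 measured genes of collagens and dermal matrix 2 were higher and 2 lower at an unadjusted p under 0.05 (background 4.08% and 2.41%). Their median was -0.05. Of 20 C/EBP, Id and epidermal factors 0 were higher and 4 lower, with a median of -0.04 (background 4.08% and 2.41%). Without *Ahr*+/- replicate 2, 1 of these factors was lower (background 1.17%) and their median was 0.03. With 18S signal as a covariate 2 were lower (background 1.9%). *Col12a1* and *Vcan*, of the dermal matrix, differed by -1.22 and -1.07, with *Ahr*+/- replicate 2 the highest array in both. The dimmer probe sets of *Col12a1* differed by -0.23, 0.07 and -0.07. *Notch1*, *Id1* and *Id3*, which act in the choice between growth and differentiation, differed by -0.55, -0.63 and -0.55, and *Cebpb*, a factor of keratinocyte differentiation, by -0.41. In each of these genes *Ahr*+/- replicate 2 was the highest untreated array. *Hp*, the haemoglobin-binding acute phase protein haptoglobin, read 11.47, 11.40 and 12.22 against 10.81, 11.21 and 9.73. *Ccl11*, or eotaxin, which draws eosinophils, read 9.37, 7.10 and 7.79 against 9.69, 9.33 and 9.95. None of these passed the adjusted threshold in limma.

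Single arrays stood out at 3 genes. *Erdr1*, chosen after its values were seen, read 10.75, 10.89 and 10.15 in *Ahr*+/- and 7.92, 7.98 and 10.16 in *Ahr*-/- skin, with *Ahr*-/- replicate 3 among the *Ahr*+/- arrays. Of the genes beside *Ahr*, *Gdap10* read 8.35, 7.57 and 8.17 against 8.34, 8.45 and 5.86, and *Gm4274* 6.14, 6.19 and 6.33 against 5.99, 6.11 and 4.86. In both *Ahr*-/- replicate 3 alone was low.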
